A study of Mus musculus with 23 samples.

Results

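Kinesins, dyneins, myosins and tubulins were followed in prefrontal cortex tissue from 8-week-old female Balb/c mice that had received 100000 cells of the 4T-1 mouse mammary carcinoma line in 100 µl PBS under the skin, or 100 µl PBS alone. Tissue was collected 18, 72 and 192 h later, and RNA of both groups was set against each other on in-house printed 2-colour oligonucleotide arrays. Genes were taken by their symbol in the array annotation: kinesin heavy chains (Kif, Kifc), kinesin light chains (Klc), cytoplasmic dynein (Dync, Dynl), dynactin (Dctn), myosins (Myo, Myh) and tubulins (Tuba, Tubb, Tubg). This gave 62 genes on 64 oligos, of 8726 genes on 8997 oligos that carry 1 gene name. The values come from the 14 arrays of total RNA among the 23 arrays of the series. These 14 arrays form 7 replicates, each hybridised as a dye swap: 3 replicates at 18 h (numbers 4, 5 and 6), 2 at 72 h (3 and 4) and 2 at 192 h (3 and 4). A swap is a pair of arrays with the same RNAs and exchanged dyes. No untreated mice and no mice with cells of another kind are among the labels, so each ratio is against the PBS injection. The labels do not tell if a replicate was 1 mouse or several pooled, so that the p-values measure only how far these samples differ among themselves, a spread that may be technical.

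Neurons have long processes, and most of their proteins and organelles are made far from where they are used. Kinesins carry cargo outward along microtubules toward axon ends, cytoplasmic dynein with its activator dynactin carries cargo back to the cell body, and unconventional myosins make short moves along actin. Microtubules are built from alpha and beta tubulin and are nucleated by gamma tubulin complexes. Many further kinesins work in the spindle of dividing cells, and several conventional myosins form the thick filaments of muscle.

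Ratios are given as tumour over PBS on the log2 scale, so positive values are higher levels in mice with tumour cells. That direction is likely and not settled, since no file header names the dye of a channel and it was read from the dye labels and the signs of the authors' value tables. A replicate value is the mean log2 ratio of both arrays of a swap, so that a dye effect shared by both arrays cancels. Over all oligos, both arrays of a swap, each read as tumour over PBS, correlated at r of -0.596 to 0.156 across oligos, and in 6 of the 7 swaps r was below 0. Across the member oligos r was above 0 in 4 of the 7 swaps, and in 3 swaps the difference tied to the dye was larger than that tied to the label for most members. Whether each pair carried the dyes in opposite orientation, as labelled, was not tested. If a pair did not, its mean would cancel a difference between tumour and PBS mice. Between 15 and 46 of the 64 oligos had a value on both arrays of a replicate. Replicate 3 at 192 h was printed separately from the other 12 arrays. Its arrays had the lowest r of the 7 swaps, -0.596 over all oligos and -0.707 across 26 members. They shared a sign for 7 of those 26 members, so most of its replicate values average readings of opposite sign. In bulk tissue, fewer cells of a type and less RNA per cell cannot be told apart. Of the marker genes of the tissue, 6 of 9 neuronal genes on the array lay above the brightness median of their arrays, while 0 of 4 skeletal muscle genes did (percentiles 15.6 to 31.0).

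Brightness was read as the percentile of an oligo among the named spots with a value on the same array, median over arrays. It depends on the oligo as well as on the transcript, so it describes how bright a spot was and gives no order of transcript levels. Dynein spots had a median percentile of 83.4 over 9 oligos, dynactin spots 81.6 over 4, kinesin light chain spots 77.7 over 3, tubulin spots 63.6 over 4 and kinesin heavy chain spots 55.5 over 23. Both myosin families were dim, at 26.5 over 15 unconventional and 26.4 over 6 conventional myosins. Spots above the percentile of 90 were those of the neuronal kinesins Kif1a (97.7) and Kif5a (93.9), of Kif3c (90.6) and Kif5b (90.5), of 1 Klc1 oligo (93.0), and of the dynein genes Dynll1 (97.3), Dync1i2 (94.99), Dync1h1 (94.0) and Dynlt3 (91.6). On single arrays some of these spots varied widely. The percentile of Dynlt3 ran from 0.058 to 97.8, that of Kif3c from 9.21 to 99.5 and that of Kif5b from 12.9 to 96.6. Kif5a, Kif1a and the Klc1 oligo had lows of 36.8, 37.0 and 40.0. Dync1h1, Dync1i2 and Dynll1 had lows of 76.5, 86.6 and 87.9. The dimmest by median were Myo15, a myosin of inner ear hair cells (4.74), and Myo1a of the intestinal brush border (10.8). At 18, 72 and 192 h the family medians were 58.8, 55.7 and 55.5 for kinesin heavy chains and 79.8, 83.3 and 83.7 for dynein. Those of tubulins were 65.1, 65.4 and 57.3 and those of conventional myosins 33.1, 40.9 and 29.8. Over all 896 pairs of an oligo and an array, 68.5% gave a value, 30.7% had none because of a spot flag or an intensity of 0, and 0.781% because of saturation. Unconventional myosins had a value on 7.13 of 14 arrays on average, against 10.5 for kinesin heavy chains and 11.5 for dynactin.

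**Figure D1:**
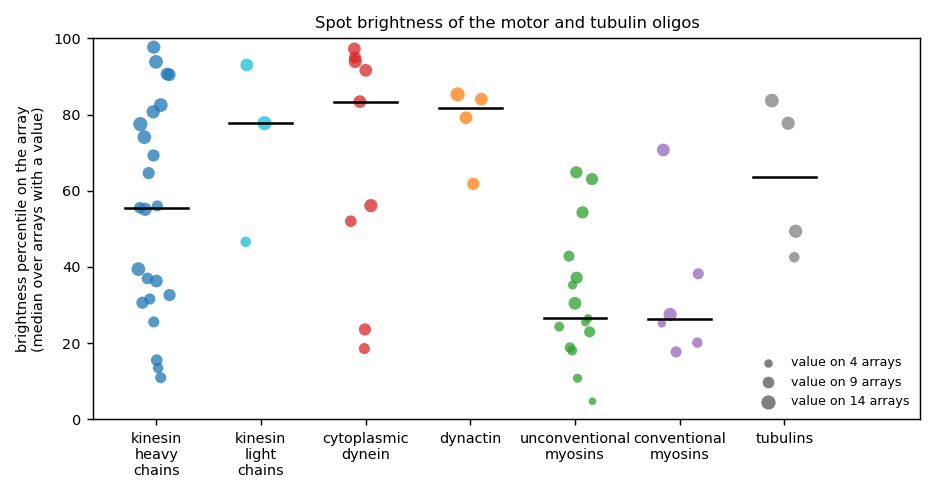
Brightness percentile on the array (vertical axis, median over the arrays with a value) of each oligo, by family; the size of a point gives the number of arrays with a value and the black lines are family medians. The dynein median stands at 83.4 and the medians of both myosin families at 26.5 and 26.4.

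An oligo was tested at a time with at least 2 replicate values. This admitted 26 genes at 18 h, 31 at 72 h and 23 at 192 h, each through 1 oligo; 9 genes were tested at all 3 times. The other end held 16 genes that were tested at no time: Kif11, Kif17, Kif22, Kif24, Dync2li1, Myh9, Myh14, Myo1a, Myo1c, Myo1f, Myo1h, Myo5a, Myo7a, Myo7b, Myo15 and Tubb6. Myh14, Myo1h and Myo15 had no value in any replicate.

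No member passed an adjusted p of 0.05 in limma at any time, and neither did any of the other oligos (0% of 3361 tested at 18 h, 0% of 4212 at 72 h and 0% of 2753 at 192 h). At an unadjusted p under 0.05, 0 members were found at 18 h and 0 at 72 h. The shares over all oligos were 2.29% higher and 3.87% lower at 18 h, and 1.45% higher and 1.26% lower at 72 h. At 192 h, 2 members were higher, Kif5a and Kif1b, and 0 were lower, against 2.98% and 0.363% of all oligos. With its trend and robust options, limma called 0 oligos at each time as well. The 95% interval of a tested member reached 0.32 to each side at the median at 18 h, and 0.33 at 72 and at 192 h. All 26 intervals at 18 h and all 31 at 72 h lay within -1 to 1, as did 21 of 23 at 192 h, the exceptions being Kif5a and Kif1b.

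The split of the signs differed by time, but so did the oligos tested, and only 9 members were tested at all 3 times. At 18 h, 8 members were above 0 and 18 below, with a median log2 ratio of -0.05 against -0.01 over all oligos tested. At 72 h the split was 16 to 15 (median 0.00, all oligos -0.02), and at 192 h it was 15 to 8 (median 0.02, as over all oligos). Of all oligos tested, 47.7% were above 0 at 18 h, 45.6% at 72 h and 55.3% at 192 h. With median centring in place of loess the split at 192 h was 12 to 11, and the 18 h median was -0.18. Without replicate 6 the 18 h median was -0.20. All replicate values had 1 sign for 9 of 26 members at 18 h, 15 of 31 at 72 h and 10 of 23 at 192 h, while over all oligos tested the shares were 40.8%, 48.6% and 48.7%. Replicates of the same time correlated across members at r of -0.519 to 0.379 over 5 pairs (9 to 31 members each). Across members the highest replicate value was 0.67 or less in each of the 6 replicates other than replicate 4 at 192 h, where it was 1.99.

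**Figure D2:**
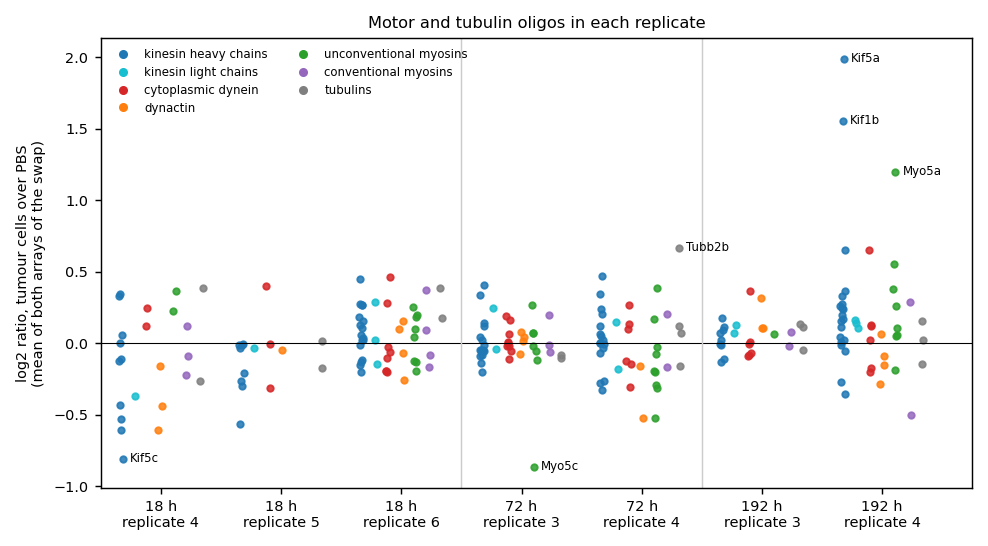
Log2 ratio of tumour cells over PBS (vertical axis, mean of both arrays of a swap) of each member oligo in each of the 7 replicates, coloured by family; members beyond 0.66 are named. Values lie close to 0 in most replicates, and Kif5a at 1.99, Kif1b at 1.55 and Myo5a at 1.20 stand apart in replicate 4 at 192 h.

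Kinesin heavy chains stood at 2 above and 10 below 0 at 18 h, and at 9 above and 3 below at 72 h. At 192 h 7 were above and 1 below, and the median log2 ratios at the 3 times were -0.08, 0.09 and 0.06. Over all oligos tested, 47.7%, 45.6% and 55.3% were above 0, and the kinesin oligos tested were not the same at each time. At 18 h the signs differed between replicates: 7 of 10 kinesin oligos were below 0 in replicate 4 and 8 of 8 in replicate 5, while 12 of 17 were above 0 in replicate 6. At 72 h 6 were above and 10 below 0 in replicate 3, and 9 above and 7 below in replicate 4; with the authors' deposited log ratios the fitted split at 72 h was 6 to 5. At 192 h they split 5 to 4 in replicate 3 and 16 to 4 in replicate 4.

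Kinesin-1, the main outward motor of axons, has the heavy chains Kif5a and Kif5c, which are mostly neuronal, and Kif5b, which most cells make. Kif5a had no value in replicate 4 at 18 h and stood at -0.21 and 0.16 in replicates 5 and 6, at 0.14 and -0.04 at 72 h, and at 0.11 and 1.99 at 192 h. A single replicate of the 6 was thus high, and the others lay on both sides of 0. In replicate 4 at 18 h 1 array gave -1.85 and the other no value; on its first scan Kif5a read 42 for tumour, under its local background of 169, and 398 for PBS (deposited intensity divided by 1000). The fitted ratio at 192 h was 1.05 ± 0.28 (SE, n = 2; limma unadjusted p = 0.0022, adjusted p = 1.00), with a 95% interval of 0.44 to 1.66. Without replicate 4 it was 0.11, and with replicate 4 alone it was 1.99. Kif5c was measured in all 7 replicates. Its 18 h values were -0.81, -0.30 and 0.45, those of 72 h were 0.34 and -0.00, and those of 192 h were 0.02 and -0.01. The 18 h replicates thus differed by more than 1 log2 unit, and the fitted ratio of -0.22 ± 0.17 (n = 3, adjusted p = 0.903 in limma) became 0.07 without replicate 4. Kif5b stood at -0.20 in replicate 6 at 18 h, at -0.33 in replicate 4 at 72 h, and at 0.07 and 0.04 at 192 h (fitted 0.06 ± 0.15, adjusted p = 1.00 in limma). Within kinesin-1, Kif5a alone was past 1 in replicate 4 at 192 h, where Kif5c was at -0.01 and Kif5b at 0.04.

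Kinesin-3 motors carry precursors of synaptic vesicles, and Kif1b also moves mitochondria. Kif1b stood at 0.27 in replicate 6 at 18 h, at -0.05 and -0.27 at 72 h, and at -0.01 and 1.55 at 192 h. As with Kif5a, 1 replicate was high and the other at 192 h had a mean near 0. That mean came from arrays at 0.08 and -0.10, in the swap with the lowest r of the 7. At 18 h single arrays of replicates 4 and 5 gave -1.16 and -0.07, with no value on the second array of either swap. The fitted ratio at 192 h was 0.77 ± 0.26 (n = 2; unadjusted p = 0.0093, adjusted p = 1.00 in limma), and without replicate 4 it was -0.01. Kif1a stood at -0.56 and 0.02 in replicates 5 and 6 at 18 h, at 0.02 and 0.21 at 72 h, and at -0.01 in replicate 3 at 192 h. Its spot was saturated on 1 array of replicate 4 at 192 h, which left it with no value there. The other array, with tumour RNA in Cy3, gave 0.71, and with saturated spots kept the replicate value was 0.33. A sign was shared by both arrays of Kif1a in 1 of 5 swaps. Every array with a value and tumour RNA in Cy5 read below 0, from -0.97 to -0.07. Arrays with tumour RNA in Cy3 ran from -0.16 to 0.71. The fitted ratio of Kif1a at 18 h was -0.27 ± 0.16 (n = 2, adjusted p = 0.852 in limma).

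Kinesin-2 works in cilia and in transport to dendrites and axons. Kif3a stood at 0.06 and 0.04 in replicates 4 and 6 at 18 h and at 0.11 in replicate 4 at 192 h. Kif3b stood at 0.34, -0.27 and -0.15 at 18 h, at -0.09 in replicate 3 at 72 h, and at -0.13 and 0.17 at 192 h. Kif3c was at -0.14 in replicate 6 at 18 h, at 0.12 in both replicates at 72 h and at 0.26 in replicate 4 at 192 h. All 3 stayed within 0.35 of 0. The 2 values of Kif3c at 72 h and those of Kif3a at 18 h lay close together. Their fitted ratios of 0.12 ± 0.15 and 0.05 ± 0.15 did not pass the test (adjusted p = 0.998 and 0.987 in limma). The arrays of Kif3c shared a sign in 4 of 4 swaps, those of Kif3a in 0 of 3. The 18 h means of Kif3a came from arrays at -0.34 and 0.46 in replicate 4, and at 0.32 and -0.25 in replicate 6. Kif17, which moves receptor cargo in dendrites, had a value in 2 replicates, near 0 at 72 h (-0.00) and at 0.24 in replicate 4 at 192 h.

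Kinesins of the kinesin-13 group take microtubules apart. Kif2a stood at -0.01 in replicates 5 and 6 at 18 h, at -0.01 and 0.34 at 72 h, and at 0.09 and 0.15 at 192 h (fitted 0.16 ± 0.14 at 72 h, adjusted p = 0.998 in limma). Kif2b was at -0.53 and -0.04 in replicates 4 and 5 at 18 h, both below 0 (fitted -0.28 ± 0.16, adjusted p = 0.842 in limma). Its arrays in replicate 4 stood at -1.14 and 0.08, and they shared a sign in 0 of 3 swaps. Kif2c, which acts in dividing cells, was at -0.11 and -0.12 at 18 h in replicates 4 and 6, and at -0.05 and 0.06 at 72 h. The arrays of Kif2c shared a sign in 0 of 4 swaps. Kif21a, a kinesin that slows microtubule growth, was at -0.61 and 0.11 in replicates 4 and 6 at 18 h, at -0.20 and 0.02 at 72 h, and at 0.17 and -0.35 at 192 h. The sign of Kif21a changed between the replicates of each time.

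Kinesins of the spindle and of cytokinesis were mostly dim and seldom measured. Kif23, which acts at the midzone of the dividing cell, was at 0.13 in replicate 6 at 18 h, at -0.14 and 0.47 at 72 h and at 0.65 in replicate 4 at 192 h. The 2 replicates at 72 h lay on opposite sides of 0 (fitted 0.17 ± 0.17, adjusted p = 0.998 in limma). Kif4, Kif11, Kif20a and Kif22 had values between -0.08 and 0.36 in the replicates that measured them. Kif12 stood at -0.43, -0.01 and 0.18 at 18 h, at 0.04 and 0.23 at 72 h (fitted 0.14 ± 0.16), and at 0.33 in replicate 4 at 192 h. Kifc3, a motor that walks toward the minus end, was at 0.02 in replicate 6 at 18 h, at 0.41 and -0.28 at 72 h and at 0.02 in replicate 4 at 192 h. Kif24 was at 0.27, -0.07 and -0.27 in 1 replicate of each time, and the oligos of Kif9 lay between -0.12 and 0.27.

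Kinesin light chains tie cargo to kinesin-1. Klc4 was measured in all 7 replicates, at -0.37, -0.04 and 0.02 at 18 h, at 0.25 and 0.15 at 72 h and at 0.12 and 0.14 at 192 h. All 4 replicates of the later times lay above 0 and the 18 h replicates at or below 0.02. The fitted ratios were -0.13 ± 0.12 (n = 3), 0.20 ± 0.14 (n = 2) and 0.13 ± 0.14 (n = 2), and none passed the test (adjusted p = 0.917, 0.998 and 1.00 in limma). The difference between 72 and 18 h was 0.33 ± 0.19 (adjusted p = 0.923 in limma). The brighter Klc1 oligo stood at -0.15 in replicate 6 at 18 h, at -0.04 and -0.18 at 72 h and at 0.07 and 0.10 at 192 h. The dimmer one gave 0.29 in replicate 6 at 18 h, on the other side of 0, and 0.16 in replicate 4 at 192 h.

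Cytoplasmic dynein is built on the heavy chain Dync1h1, with intermediate chains that bind dynactin and small light chains. Dync1h1 stood at -0.31 and -0.10 in replicates 5 and 6 at 18 h, at -0.02 and 0.10 at 72 h and at -0.07 and 0.02 at 192 h. Both 18 h replicates were below 0 (fitted -0.21 ± 0.14, adjusted p = 0.892 in limma), and later values lay within 0.10 of 0. However, the arrays of Dync1h1 shared a sign in 0 of 6 swaps. Each array with tumour RNA in Cy5 read below 0 and each with tumour RNA in Cy3 above. At 18 h they stood at -0.75 and 0.12 in replicate 5, and at -0.36 and 0.16 in replicate 6. Among the intermediate chains, Dync1i1, the neuronal one, was at -0.00 and 0.46 in replicates 5 and 6 at 18 h (fitted 0.23 ± 0.16, adjusted p = 0.892 in limma) and at 0.06 in replicate 3 at 72 h. Dync1i2 was at -0.19 in replicate 6 at 18 h, at 0.19 and 0.13 at 72 h and at -0.01 and -0.17 at 192 h. The 72 h replicates of Dync1i2 were both above 0, while at 192 h replicate 4 was below 0 and replicate 3 near it. That value of replicate 3 was the mean of arrays at 0.28 and -0.29. Between 192 and 72 h the difference was -0.25 ± 0.20 (adjusted p = 0.986 in limma).

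Dynll1 and Dynll2 encode the LC8 light chains, which also join other complexes. Dynll1 was at 0.25, 0.40 and -0.06 at 18 h (fitted 0.19 ± 0.13, n = 3, adjusted p = 0.892 in limma), at -0.11 in replicate 3 at 72 h and at -0.09 in replicate 3 at 192 h. It was saturated on 3 arrays, and its arrays shared a sign in 1 of 5 swaps, replicate 5 at 18 h (0.59 and 0.21). The 0.25 in replicate 4 at 18 h came from arrays at -0.17 and 0.67. Dynll2 was at 0.28 in replicate 6 at 18 h, at 0.01 and 0.26 at 72 h, and at 0.01 and 0.65 at 192 h. All 5 replicate values of Dynll2 were above 0 (fitted 0.33 ± 0.17 at 192 h, n = 2, adjusted p = 1.00 in limma), but its arrays shared a sign in 3 of 5 swaps. The values of 0.01 in replicate 3 came from arrays at -0.19 and 0.21 at 72 h, and at 0.42 and -0.40 at 192 h. Dynlt3, a light chain of the Tctex type, was at -0.20 in replicate 6 at 18 h, at 0.16 and -0.31 at 72 h and at 0.36 and -0.20 at 192 h. Dync2h1, the heavy chain of the dynein of cilia, stayed between -0.14 and 0.12, and Dynlrb2 between -0.20 and 0.13.

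Dynactin activates dynein and links it to cargo. Dctn5, a subunit at the pointed end of its actin-like filament, was measured in all 7 replicates: at -0.61, -0.05 and -0.07 at 18 h, at 0.04 and -0.16 at 72 h and at 0.32 and 0.06 at 192 h. All 18 h values were below 0 and both 192 h values above. The arrays of Dctn5 shared a sign in 3 of 7 swaps. The fitted ratios were -0.24 ± 0.13 (n = 3, adjusted p = 0.822 in limma), -0.06 ± 0.16 and 0.19 ± 0.16 (n = 2 each), and the difference between 192 and 18 h was 0.43 ± 0.21 (adjusted p = 0.707 in limma). Dctn1, the subunit that grips microtubules, was at -0.16 and 0.10 in replicates 4 and 6 at 18 h, at -0.08 in replicate 3 at 72 h and at 0.10 and -0.09 at 192 h. Dctn2, known as dynamitin, was at -0.44 and 0.16 in replicates 4 and 6 at 18 h, at 0.01 in replicate 3 at 72 h and at 0.10 and -0.15 at 192 h. Dctn4 was at -0.26 in replicate 6 at 18 h, at 0.08 and -0.52 at 72 h (fitted -0.22 ± 0.17, adjusted p = 0.998 in limma) and at -0.29 in replicate 4 at 192 h. In replicate 4 at 18 h all 3 dynactin subunits with a value were below 0 (-0.61 to -0.16), while in replicate 6 they split 2 to 2.

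Among unconventional myosins, 1 was tested at 18 h, 5 at 72 h and 1 at 192 h. Myo5a, the myosin that carries vesicles and endoplasmic reticulum into dendritic spines, stood at 0.18 in replicate 6 at 18 h, at -0.21 in replicate 4 at 72 h and at 1.20 in replicate 4 at 192 h. With 1 replicate value at each time it could not be tested. Single arrays without a partner gave -0.47 and 0.18 in replicates 4 and 5 at 18 h, 0.44 in replicate 3 at 72 h and 0.09 in replicate 3 at 192 h. Myo19, which sits on mitochondria, was at -0.12 in replicate 6 at 18 h, at 0.07 and -0.53 at 72 h (fitted -0.23 ± 0.17, adjusted p = 0.998 in limma) and at 0.05 in replicate 4 at 192 h. Myo10, a motor of filopodia, was at 0.04, then at -0.06 and -0.29 at 72 h (fitted -0.17 ± 0.15, adjusted p = 0.998 in limma), and at 0.05 in replicate 4 at 192 h. Myo5c was at 0.22 and 0.10 in replicates 4 and 6 at 18 h (fitted 0.16 ± 0.15, adjusted p = 0.921 in limma), at -0.87 in replicate 3 at 72 h and at 0.26 in replicate 4 at 192 h. The -0.87 of Myo5c was the lowest replicate value of any member, and no second 72 h replicate measured it. Myo3a was at -0.19, 0.07, 0.17 and 0.56 in the replicates with a value, the last being replicate 4 at 192 h. Myo18a was at 0.07 and -0.19 at 192 h (fitted -0.06 ± 0.15). The other unconventional myosins lay between -0.31 and 0.38.

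Of the 6 conventional myosins, Myh4 (percentile 70.7) and Myh8 (38.2) were brighter than every skeletal muscle marker. Myh3, the embryonic form of skeletal muscle, was at -0.09 in replicate 4 at 18 h, at -0.01 and -0.17 at 72 h and at -0.02 and -0.50 at 192 h. All 5 values were below 0 (fitted -0.26 ± 0.16 at 192 h, adjusted p = 1.00 in limma). However, the arrays of Myh3 shared a sign in 2 of 5 swaps. In replicate 3 at 192 h they stood at 0.52 and -0.56. In replicate 4 at 192 h its first-scan tumour readings were below their local background on both arrays. The Myh3 value of that replicate ranged from -1.06 to -0.15 over 7 processing settings. Myh1, Myh4 and Myh8 of muscle fibres lay between -0.22 and 0.37. The non-muscle form Myh9 was at -0.17 in replicate 6 at 18 h and at 0.29 in replicate 4 at 192 h, and 2 of its 14 arrays were saturated. These were the arrays of replicate 3 at 192 h, which were printed separately. On the arrays with a value its median percentile was 20.1.

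The array held 4 genes of the tubulin group under this rule. Tuba8, an alpha tubulin, was at 0.38 and 0.18 in replicates 4 and 6 at 18 h, at -0.11 and -0.16 at 72 h and at 0.14 and -0.15 at 192 h. Both 18 h values were above 0 and both 72 h values below. The arrays of Tuba8 shared a sign in 3 of 6 swaps. The fitted ratio at 18 h was 0.28 ± 0.14 (adjusted p = 0.818 in limma), and 72 h differed from 18 h by -0.41 ± 0.20 (adjusted p = 0.923 in limma). Tubb2b, a beta tubulin of young neurons, was at -0.17 and 0.39 in replicates 5 and 6 at 18 h (fitted 0.11 ± 0.16), at 0.67 in replicate 4 at 72 h and at 0.11 and 0.16 at 192 h. Tubgcp4, a part of the gamma tubulin ring, was at -0.26 and 0.01 in replicates 4 and 5 at 18 h and within 0.10 of 0 in the 4 later replicates. Tubb6 was at 0.12 in 1 replicate at 72 h.

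**Figure D3:**
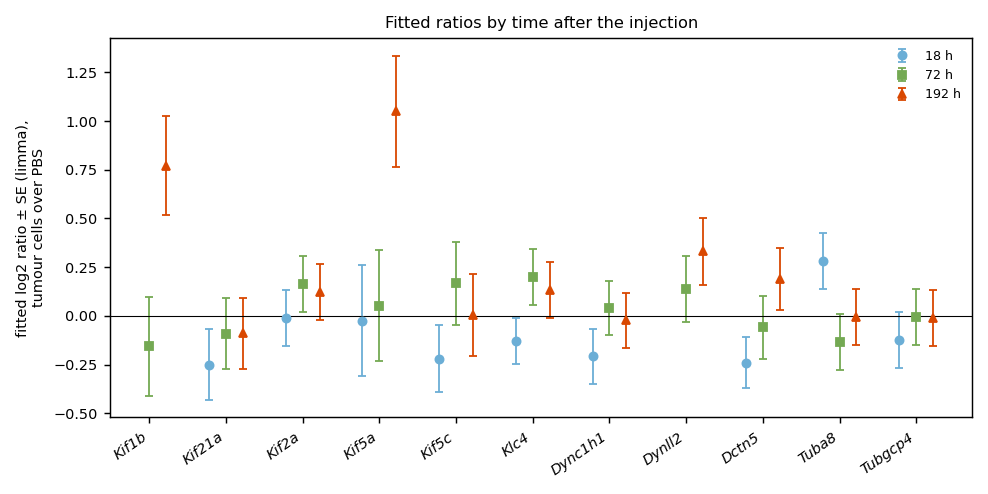
Fitted log2 ratio with its SE (limma, vertical axis) at 18, 72 and 192 h for the 9 members tested at all 3 times and for Kif1b and Dynll2, tested at 72 and 192 h. Kif5a at 1.05 and Kif1b at 0.77 at 192 h lie farthest from 0, and no value passed the adjusted test.

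The 3 highest values of the group came from 1 replicate, replicate 4 at 192 h, and the next was Tubb2b in replicate 4 at 72 h (0.67). Both arrays of replicate 4 at 192 h gave a value for 46 member oligos, of which 34 were above 0 and 12 below; 21 were above 0 on both arrays and 6 below 0 on both. In percent of all 6694 oligos, 27.6% were above 0 on both arrays and 25.8% below on both. Past 0.5 upward were 6 members: Kif5a (1.99), Kif1b (1.55), Myo5a (1.20), Dynll2 (0.65), Kif23 (0.65) and Myo3a (0.56), against 263 of 6694 oligos (3.93%). Past 0.5 downward was Myh3 (-0.50), against 0.807% of all oligos. These members were singled out after their values had been seen, so the share is a description. By rank among the 6694 oligos, Kif5a was the fifth from the top, Kif1b number 9 and Myo5a number 18.

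Both dye orientations gave these members the same sign, which their choice by the mean of the same 2 arrays favours. Kif5a was at 1.86 with tumour RNA in Cy3 and at 2.12 with tumour RNA in Cy5, Kif1b at 1.53 and 1.57, and Myo5a at 1.36 and 1.03. Dynll2 stood at 0.62 and 0.68, Kif23 at 0.68 and 0.61, Myo3a at 0.40 and 0.71 and Myh3 at -0.51 and -0.49. Across the members, both arrays of this swap correlated at r = 0.733 (46 oligos), and at 0.458 without Kif5a and Kif1b. The r of 0.458 still includes Myo5a, Dynll2, Kif23, Myo3a and Myh3. Over all 6694 oligos r was 0.156, and no other swap had r above 0 over all oligos. In the other replicates Kif5a showed the same sign on both arrays in 0 of 5 swaps, for example at -0.13 and 0.36 in replicate 3 at 192 h, so its arrays there differed by more than their mean lay from 0. Kif1b had the same sign on both arrays in 3 of 5 swaps in all.

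On the first scan, as deposited intensity divided by 1000, Kif5a in replicate 4 at 192 h read 2754 for tumour against 1269 for PBS with tumour RNA in Cy3, and 4443 against 603 with tumour RNA in Cy5. The subtracted local background was 118 to 183 in those channels. In replicate 3 the same oligo read 1358 against 1368 and 2156 against 1922, with tumour and PBS close to each other. Kif1b read 2234 against 1337 and 6662 against 1335 in replicate 4, with local backgrounds of 161 to 208. Myo5a read 853 against 517 and 857 against 230, with local backgrounds of 356 and 241 and of 270 and 252. Kif5a and Kif1b were thus several times brighter than their local background in every channel of replicate 4, while Myo5a in 1 PBS channel there was below it. These readings precede the removal of the brightness-dependent dye difference. Over the main setting and 6 others (block loess, median centring, normexp, no spot filter, first scan alone and the authors' deposited log ratios), the value of replicate 4 ranged from 1.73 to 2.05 for Kif5a, from 1.42 to 1.59 for Kif1b and from 0.88 to 1.32 for Myo5a.

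**Figure D4:**
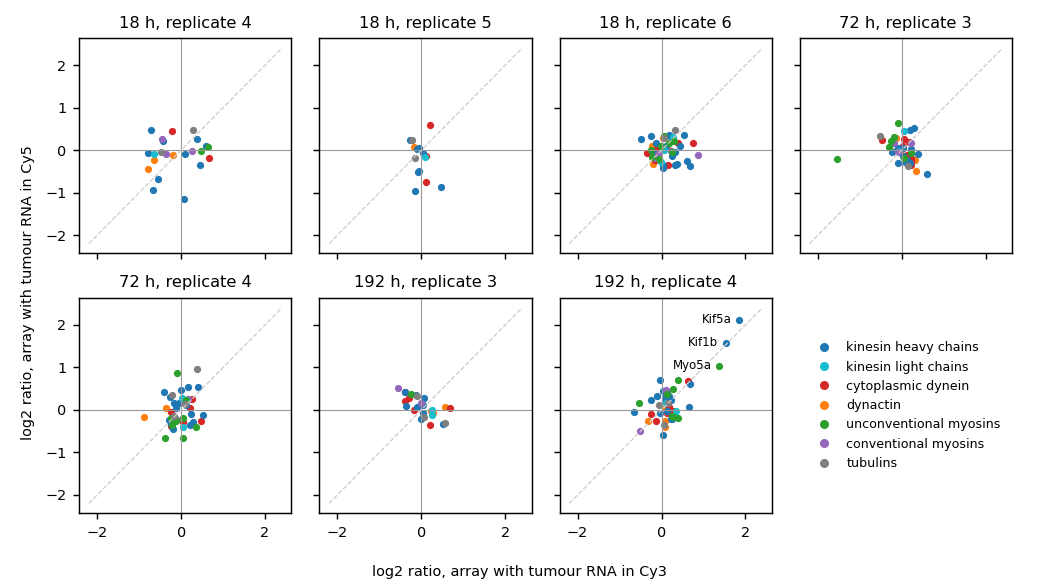
Log2 ratio of tumour over PBS on the array with tumour RNA in Cy3 (horizontal axis) and in Cy5 (vertical axis) for each member oligo, in 1 panel for each replicate; the dashed line marks equal values. Points scatter around 0 or slope downward in most panels, and Kif5a, Kif1b and Myo5a lie near the line at the upper right in replicate 4 at 192 h.

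**Figure D5:**
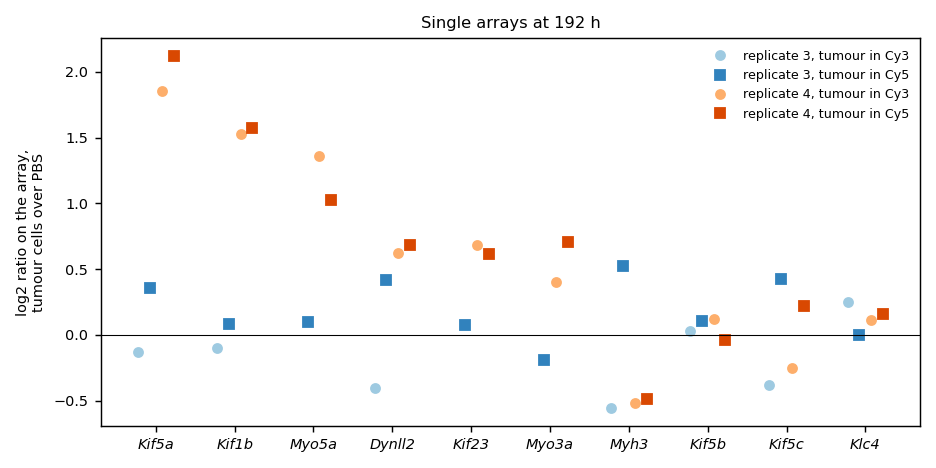
Log2 ratio of tumour over PBS on each of the 4 arrays at 192 h for 10 members; circles are arrays with tumour RNA in Cy3 and squares those with tumour RNA in Cy5. Kif5a stands at 1.86 and 2.12 in replicate 4 and at -0.13 and 0.36 in replicate 3, while Kif5b, Kif5c and Klc4 lie within 0.45 of 0 on every array.

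Neuronal marker genes in the same replicate were measured for 7 oligos, of which 4 were above 0 and 3 below, from -0.27 to 0.74, with a median of 0.05. Camk2a (0.74), Gad2 (0.70) and Syn1 (0.48) were the high ones, and Syt1 (-0.27), Nefm (-0.17), Stmn2 (-0.09) and Nefl (0.05) were not. In replicate 3 the same list ran from -0.15 to 0.49 (4 above 0 and 3 below). Both astrocyte and both oligodendrocyte genes with a value in replicate 4 were within 0.04 of 0 and below it. The 3 oligos of smooth muscle and vessels were below 0 there, from -0.30 to -0.10. Of the ependyma and choroid plexus genes, Foxj1 was at 0.21 and Kl at -0.18, and the skeletal muscle gene Mylpf was at -0.10. The part of a difference in cell makeup in the values of Kif5a, Kif1b and Myo5a was not tested.

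In limma without replicate 3 at 192 h, which leaves replicate 4 as a lone sample, the fitted ratio was 1.99 for Kif5a and 1.55 for Kif1b. Without replicate 4 the fitted ratios were 0.11 and -0.01. A fit with 1 replicate at a time holds no spread between replicates of that time, so its p-values are not given.

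The difference between 192 and 72 h was tested for 16 members, and 0 passed, as did 0% of 1925 oligos. Kif5a was higher at 192 h by 1.00 ± 0.40 (unadjusted p = 0.026) and Kif1b by 0.93 ± 0.36 (unadjusted p = 0.023), both with an adjusted p of 0.986 in limma. These were the only members with an unadjusted p under 0.05, of 60 oligos in all. A test of any difference among the 3 times covered 9 members, of which 0 passed (smallest adjusted p = 0.948 in limma), and 0% of 1222 oligos passed.

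Genes that work with the motors were listed from textbook knowledge with earlier results of these data known: 32 adaptors and regulators, 33 microtubule-associated proteins and 25 genes of tubulin folding, modification and severing. Of the 90 listed symbols, 44 were on the array, and 24, 22 and 17 oligos were tested at 18, 72 and 192 h. None passed the adjusted test in either direction. At an unadjusted p under 0.05, 1 was higher and 1 lower at 18 h, 2 higher and 1 lower at 72 h, and 1 higher and 0 lower at 192 h. Over all oligos the shares were 2.29% higher and 3.87% lower at 18 h, and 1.45% and 1.26% at 72 h. At 192 h they were 2.98% and 0.363%. The list had 10 above and 14 below 0 at 18 h (median -0.03), 12 and 10 at 72 h (0.02) and 10 and 7 at 192 h (0.11), beside -0.01, -0.02 and 0.02 over all oligos.

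At 18 h the high end held Mapk8ip2, a kinesin-1 scaffold (1.02 and -0.14, fitted 0.44 ± 0.20), Map6, which stabilises microtubules (0.56 and 0.02), and the myosin light chain kinase Mylk (0.25 and 0.15). Its low end held Nin, an anchor of microtubules and dynein at the centrosome (-0.91 and -0.43, fitted -0.67 ± 0.19, adjusted p = 0.758 in limma), the dendritic protein Map2 (-0.44 and -0.13) and Kifap3, the adaptor of kinesin-2 (-0.18 and -0.22). At 72 h the tubulin carboxypeptidase partner Svbp stood at 0.21 and 1.01 and the plus-end protein Mapre1 at 0.28 and 0.55, and the dynein partner Zw10 at 0.18 and 0.23. Pafah1b1, known as Lis1 and a regulator of dynein, stood at -0.38 and -0.25, Agbl4 at -0.53 and 0.05 and Ttl at -0.32 and -0.12. At 192 h Map1b, an axonal microtubule protein, read -0.19 in replicate 3 but 1.49 in replicate 4 (fitted 0.65 ± 0.28, adjusted p = 1.00 in limma). Nin was at -0.05 and 0.78 there and Ttll11 at 0.11 and 0.45. The low end at 192 h held Myl6 (-0.17 and -0.19), Stmn2 (-0.14 and -0.09) and Svbp (-0.19 and 0.01). Across the 17 oligos of the list at 192 h, replicate 4 was above replicate 3 for 9 and below it for 8.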

How the data were processed

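The deposited scanner tables hold 3 scans of each array with 10080 spots. Each row holds integrated intensities of 2 channels, from which the authors had subtracted the local background, per the file headers, and a deposited fraction of unsaturated pixels. The authors' value tables hold 1 log ratio per spot, of unstated base and normalization; they served for the direction and as an alternative. The sources used here do not name the image analysis program. Spots flagged good in both channels, with intensities above 0 and at least 0.9 of pixels unsaturated, entered a log2 ratio, corrected by loess (span 0.3) within each scan, averaged over scans and turned to tumour over PBS. A replicate value needs both arrays of the swap. The limma package (version 3.58.1, R 4.3.3; lmFit and eBayes) fitted 1 coefficient per time to these values, and two-sided p-values were adjusted by Benjamini-Hochberg over all oligos tested. The pipeline was tested on simulated data. Values are named for the 6 members of smallest p in each direction and time, for members with all 7 replicates, and for a fixed list of neuronal motors. Members and lists were chosen with earlier results of these data known. Oligo names come from the platform annotation, and all 62 member symbols matched by gene number. The 9 poly A arrays were not used here. The number of arrays limits the precision. Alternatives were block loess, median centring, normexp, no spot filter, single arrays, another variance model, 1 scan, the authors' values and leaving out replicates.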

Additional observations from a re-analysis of the deposited data

How the results depend on the processing

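Of 36 named values, all kept their direction without the spot filter, with either array of a swap, and with single arrays as observations beside a dye term. Trend and robust settings change only the variance estimate of limma, so they could not turn a direction. Block loess turned Dync2h1 at 72 h (0.071) and Dync1h1 at 192 h (0.017). Median centring turned 3 at 18 h, Dynll1 (-0.21), Tubb2b (-0.24) and Kif21a (0.076), and called 8 oligos at 18 h and 1 at 192 h, with no member among them. Normexp turned Kif3a at 18 h (-0.037), and the first scan alone, which gave 18 of the 36, Dync1h1 at 192 h (0.040). The authors' deposited log ratios, of unknown base, gave 32 of the 36 and turned Dynll1 (-0.054) and Myo5c (-0.0049) at 18 h, Kif12 (-0.024), Klc1 (0.031) and Dync2h1 (0.012) at 72 h, and Myo18a (0.052) at 192 h. The members' median at 72 h was 0.032 with block loess, 0.048 with median centring, 0.034 with normexp, 0.019 without the spot filter and 0.067 on the first scan; at 18 h it was -0.18 with median centring, and at 192 h 0.070 with normexp. The cause was not tested.

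Leaving out 1 replicate at a time gave the members' median a range of -0.20 to -0.0091 at 18 h, -0.017 to 0.0025 at 72 h and 0.021 to 0.12 at 192 h. It gave 0 to 1 oligos called at 72 h, 0 to 19 at 192 h with 0 to 2 members, and 0 to 1 for 192 against 72 h, the 1 being Kif5a without replicate 3 at 192 h. At 192 h Kif5a ran from 0.11 to 1.99, Kif1b from -0.0085 to 1.55, Kif21a from -0.35 to 0.17, Dctn2 from -0.15 to 0.10, Myo18a from -0.19 to 0.066 and Dync1h1 from -0.066 to 0.021. At 72 h Kif2a ran from -0.012 to 0.34, Kif23 from -0.14 to 0.47, Myo19 from -0.53 to 0.073 and Dctn4 from -0.52 to 0.079, and Kif5c at 18 h from -0.55 to 0.075. With the replicate number as a block on the 4 replicates of 72 and 192 h, 0 of 1925 oligos passed (66 at an unadjusted p under 0.05, against 70 without the block). Replicates of the same number did not deviate together (r = 0.0046 across 1925 oligos), so the numbers were not taken as pairs, and the block changed no call. The number of replicates (2 or 3 a time) and the spots without a value limit the precision.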
